A study of Mus musculus with 4 samples.

Results

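Tandem duplication calls in the normal lung of a FEN1 A159V knock-in mouse were compared with those in the normal lung of a wild-type (WT) mouse. A call was a duplication record with at least 1 supporting read in that library. There were 654 such calls among the 1404 records of both genotypes, 315 in the A159V lung and 339 in the WT lung. The study sequenced the exomes of normal lung and lung tumor from both genotypes, with 1 library in each of the 4 groups. The mutant is heterozygous, with 1 A159V allele and 1 WT allele of Fen1, and the WT group has no A159V allele. Strain, age and any other treatment are not named, the treatment field of all 4 samples names the knock-in, and it is not stated whether tumor and normal lung came from the same animal. Since each side is 1 library, differences between mice were not measured and no test between genotypes was made. The 95% intervals below cover counting error only. No molecular identifiers mark which reads stem from 1 molecule, so the intervals can be too narrow even for that.

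FEN1, flap endonuclease 1, is a structure-specific nuclease. On the lagging strand, DNA polymerase delta displaces the RNA-primed 5′ end of the preceding Okazaki fragment into a flap, FEN1 cuts the flap at its base, and DNA ligase I seals the nick. A flap that is left uncut can be ligated in place, which duplicates its sequence, and flaps that carry repeats can fold or realign. FEN1 also removes flaps in long-patch base excision repair.

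The calls were short insertions in which a segment of the reference was followed by a further copy of itself, either directly or after other inserted bases. When no base lay between the copies the call is named an exact copy here. All coordinates are on GRCm38 and give the duplicated segment. The first 4 sequences are exact copies in protein-coding genes of the A159V lung or of both lungs, and the next 5 are from the WT lung. They are shown because they hold the duplicated unit with no other inserted base. Capitals mark all occurrences of the longest word that occurs more than once within the segment. Where occurrences overlap, the stretch of capitals is longer than the word.

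Rpap3, both lungs, chr15:97686399-97686431: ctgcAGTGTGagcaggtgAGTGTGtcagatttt
Tle1, both lungs, chr4:72181690-72181719: ctttttgttttggTTTTTTTTTTTgtctgt
Myt1l, A159V, chr12:29621812-29621843: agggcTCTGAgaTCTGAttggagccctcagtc
Tmem267, A159V, chr13:119609646-119609681: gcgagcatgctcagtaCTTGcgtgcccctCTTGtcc
Gins1, WT, chr2:150922656-150922695: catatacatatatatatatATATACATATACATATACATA
Cntnap5b, WT, chr1:100424202-100424246: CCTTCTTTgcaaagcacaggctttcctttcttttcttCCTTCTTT
Foxd4, WT, chr19:24899981-24900022: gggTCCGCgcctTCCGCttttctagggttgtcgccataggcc
Folr2, WT, chr7:101849667-101849703: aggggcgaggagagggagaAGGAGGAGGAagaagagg
Gm15107, WT, chrX:148202841-148202864: aGACCacatcctGACCtctcaggt

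The sequences include a T-rich run at Tle1 and a dinucleotide run at Gins1, beside segments of mixed sequence such as Myt1l and Foxd4. Further segments, from calls with bases between the copies, follow because the results on read counts, chromosome 14, satellite and internal repeats turn on them. Capitals again mark the longest internal repeated word, and Irak4, with no such word, has none.

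Irak4, both lungs, chr15:94563066-94563088: gaacctcaactactggttagtaa
Chl1, both lungs, chr6:103649107-103649152: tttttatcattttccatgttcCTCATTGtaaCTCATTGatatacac
Satellite-like position, both lungs, chr2:98666884-98666929: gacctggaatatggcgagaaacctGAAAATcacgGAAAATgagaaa
Nlrp14, WT, chr7:107179666-107179697: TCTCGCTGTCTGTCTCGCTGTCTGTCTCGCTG
Erc2, A159V, chr14:28137949-28137997: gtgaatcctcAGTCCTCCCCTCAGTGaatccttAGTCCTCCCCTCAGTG
Dnah12, A159V, chr14:26753253-26753291: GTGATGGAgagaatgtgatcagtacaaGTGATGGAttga

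The last set gives whole altered alleles of variants that were identical in both normal lungs. The first copy and the second copy are in lower case, and the inserted bases between them are in capitals.

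C2cd2l, chr9:44317711-44317752: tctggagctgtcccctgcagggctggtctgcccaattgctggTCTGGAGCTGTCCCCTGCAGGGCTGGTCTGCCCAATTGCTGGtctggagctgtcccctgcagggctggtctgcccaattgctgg
Cmya5, chr13:93096892-93096937: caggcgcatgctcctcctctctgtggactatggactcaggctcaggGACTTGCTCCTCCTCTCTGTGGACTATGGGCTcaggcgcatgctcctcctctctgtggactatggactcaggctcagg
Gene-free position, chr11:114961727-114961773: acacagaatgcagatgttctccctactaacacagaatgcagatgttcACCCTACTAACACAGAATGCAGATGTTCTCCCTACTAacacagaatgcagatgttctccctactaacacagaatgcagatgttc

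At C2cd2l the 42 bases between the copies were a whole further copy of the 42-base segment, so the allele holds 3 copies in a row. At Cmya5 the longest word of the segment found among the 32 bases between the copies was 25 bases long. At the gene-free position on chromosome 11 it was 28 of 37 bases, and at Erc2 all 20 bases between the copies were a run of the segment.

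The numbers of calls in the A159V and the WT normal lung were close, 315 (95% Poisson interval 281 to 352) and 339 (304 to 377), a ratio of 0.929 (0.795 to 1.09). Merging records within 10 bp left 292 and 321 loci. Nearly all calls rested on a single read, 292 (92.7%) in A159V and 313 (92.3%) in WT, and the libraries had 383 and 412 duplication reads over all calls. Calls with at least 2 reads numbered 23 and 26, a ratio of 0.885 (0.482 to 1.61). Those with 5 or more reads numbered 4 and 1. The genotype field of the deposited tables named the duplication for 3 of the A159V calls and 1 of the WT calls.

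The ratio stayed near 1 in the subsets that set aside variants seen in another library. Calls with no duplication read in the tumor of the same genotype numbered 278 in A159V and 290 in WT, a ratio of 0.959 (0.810 to 1.13). Many of these sites had few or no tumor reads of any kind. Calls with no record within 10 bp in the other genotype numbered 241 and 266, and 235 and 256 met both conditions, a ratio of 0.918 (0.766 to 1.10). Where the tumor had at least 20 reads at the site and none with the duplication, 53 and 59 calls remained. These intervals all include 1, so a higher or lower number in A159V was not detectable with these counts, and a difference of the sizes inside the intervals remains possible. Divided by the reads at all recorded sites, the ratio over all calls was above 1, at 1.27 (1.09 to 1.48). Its direction thus depends on that scaling. Recorded sites are the 612 A159V and 792 WT records, each with a duplication read in normal lung or tumor of that genotype. Most of their reads are satellite-like, and their sum grows with the number of records, so it does not measure library depth.

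Most calls in both libraries lay at sites with very few reads, and the libraries differed in 1 depth class. At sites with 1 read in all there were 131 A159V and 143 WT calls, and at 2 to 9 reads 86 and 93. The classes of 10 to 19, 20 to 99 and 100 to under 1000 reads held 28 and 20, 41 and 45, and 26 and 19 calls. At 1000 or more reads there were 3 A159V calls and 19 WT calls, a ratio of 0.158 (0.0299 to 0.536), and with the interval widened for 6 classes 0.0152 to 0.733. All of these 3 and 19 calls lay in satellite-like sequence. With a limit of 750 reads in A159V, set after its lower satellite depth was seen, 5 A159V calls stood against the 19, a ratio of 0.263 (0.0768 to 0.729).

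**Figure D1:**
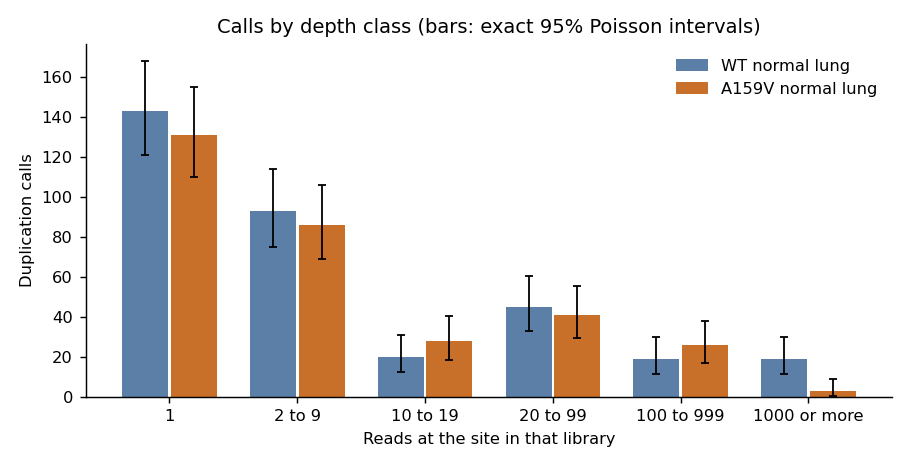
Number of duplication calls (vertical axis) in each class of site depth in reads (horizontal axis) for the WT and the A159V normal lung, with exact 95% Poisson intervals as error bars. The class of 1000 or more reads, with 19 WT and 3 A159V calls, is the only one in which the intervals of the libraries do not overlap.

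Satellite-like calls were fewer in the A159V lung, and so were their reads. Satellite DNA is the tandem repeat of mouse pericentromeres, and its reads pile up at the few copies in the assembly. A record counted as satellite-like when it shared at least 2 words of 12 bases with words recurring in the gene-free clusters of records on chromosomes 2 and 9. There were 22 A159V (6.98% of its calls) and 40 WT calls (11.8%), a ratio of 0.550 (0.311 to 0.948) and a difference in share of -4.82 percentage points (-9.33 to -0.299). Chromosome 2 held 3 and 15 of them, a ratio of 0.200 (0.0371 to 0.707), and chromosome 9 held 9 and 13. The interval of the difference in share included 0 when records were merged into loci (-4.15, -8.49 to 0.195) and without loci recorded in both genotypes (-2.58, -6.82 to 1.67).

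The depth at these sites moved with the calls. Over the 19 satellite-like start positions recorded in both genotypes, the A159V library had a median of 0.750 times the WT reads (0.711 to 0.765), with a range of 0.650 to 0.967, and all 19 were below 1. Neighbouring positions share reads and are not independent. Outside satellite-like and densely recorded stretches the median over 17 positions was 1.11 (0.941 to 1.34), with 6 below 1. Per 10000 reads over all satellite-like records, A159V had 7.19 duplication reads (5.18 to 9.72) and WT 9.07 (7.19 to 11.3), a ratio of 0.793 (0.532 to 1.17). At recorded sites of 1000 or more reads the rates were 0.821 and 2.68, a ratio of 0.306 (0.0761 to 0.914), and 3 of 18 such A159V records (16.7%) were called in the normal lung against 19 of 36 WT records (52.8%). A site is recorded only where normal lung or tumor of that genotype had a duplication read, so these rates do not cover all sequenced sites. Reads shared by overlapping records were counted for each record, and A159V had 65 and WT 96 satellite-like records. The part of depth in the lower number of satellite-like calls was not tested.

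The single satellite-like position shown for chromosome 2 had 2 duplication reads of 1398 in A159V (0.143%) and 1 of 1849 in WT (0.0541%). The fraction was under 1% in both lungs and the intervals overlapped. Without satellite-like calls and dense stretches, A159V had 280 and WT 294 calls, a ratio of 0.952 (0.806 to 1.13), and at 20 or more reads there 54 and 49.

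Calls were spread over all 21 chromosomes in both lungs, and A159V had more calls on 9, WT on 9, and 3 were equal. Chromosome 14 had 31 A159V and 15 WT calls, a ratio of 2.07 (1.08 to 4.12), and chromosome 2 had 15 and 33, a ratio of 0.455 (0.229 to 0.861). The remaining chromosomes had intervals that include 1. After satellite-like and dense stretches were left out, chromosome 2 had 12 and 18 calls, a ratio of 0.667 (0.293 to 1.46). Chromosome 14 then had 28 and 13, a ratio of 2.15 (1.08 to 4.53), and chromosome 6 had 9 and 21, a ratio of 0.429 (0.173 to 0.976). Widened for 21 chromosomes, the intervals of all calls on chromosomes 2 and 14 included 1 (0.156 to 1.18 and 0.787 to 6.07).

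**Figure D2:**
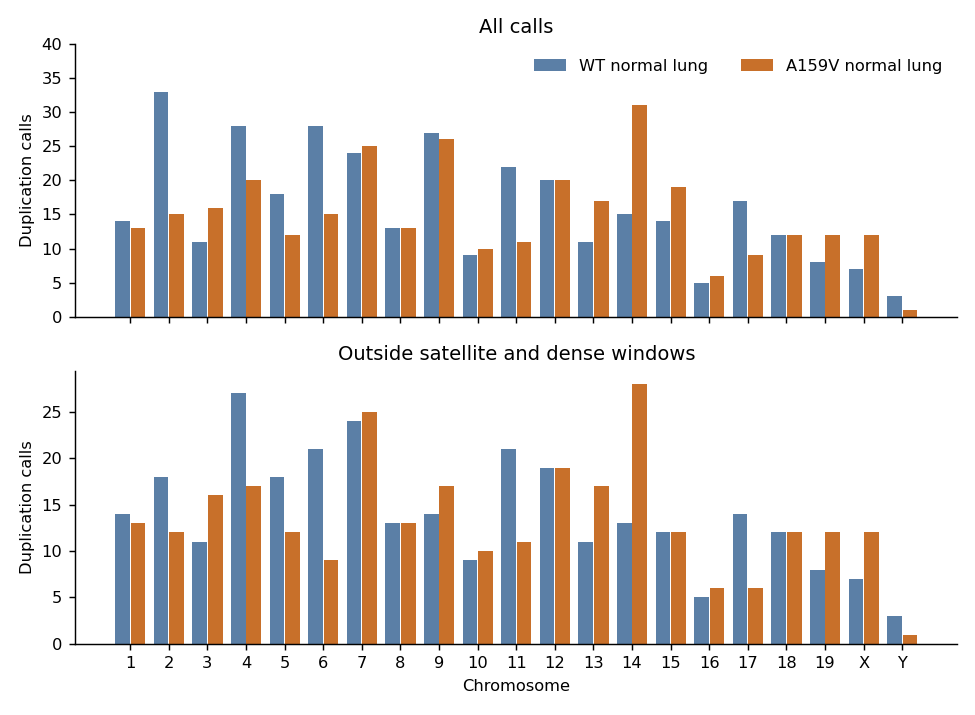
Number of duplication calls (vertical axis) by chromosome for the WT and the A159V normal lung, over all calls (top) and outside satellite-like and dense stretches (bottom). Chromosome 2 stands higher in WT in the top plot (33 against 15), and chromosome 14 stands higher in A159V in both (31 against 15 and 28 against 13).

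The chromosome 14 calls of the A159V lung were scattered and mostly at sites with 1 read. They fell in 23 windows of 1 Mb between positions 8130421 and 119214301, against 12 windows for WT. Of the A159V calls 20 were at sites with 1 read, against 6 in WT. No record in the other genotype was found for 22, against 11. In 30 A159V and 12 WT calls the tumor had no duplication read, and many of these A159V sites had no tumor read at all. Over all chromosomes these shares were, in this order, 41.6%, 76.5% and 88.3% of A159V calls and 42.2%, 78.5% and 85.5% of WT calls. Protein-coding gene spans held 19 A159V and 4 WT calls, in 15 and 3 genes. Over all chromosomes such spans held 60.3% of A159V and 52.8% of WT calls. Dnah12, a dynein heavy chain gene of cilia and flagella, had 3 A159V calls, and the glutamate receptor gene Grid1 had 2 in each lung. The other A159V genes were Ptprg, Cadps, Rarb, Erc2, Pxk, Gch1, Myh7, Tdh, Stc1, Egr3, Sucla2, Tgds and Hs6st3, and the other WT genes were Fbxo34 and Gm16867. In the tumor libraries chromosome 14 had 13 of 334 A159V calls (3.89%) and 40 of 502 WT calls (7.97%). The ratio of these counts was 0.325 (0.159 to 0.620), which is the opposite direction. The tumor totals were also lower in A159V, and the tumor intervals of chromosomes 8, 9 and 19 lay below 1 as well. In normal lung chromosome 14 held 9.84% of A159V and 4.42% of WT calls.

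The duplicated segments were of closely similar length in both lungs. The median was 40 bp in A159V (interval 38 to 41) and 39 bp in WT (38 to 41), with quartiles of 32.5 and 46 bp and of 33 and 46 bp. No segment was longer than 49 bp in either library, and the shortest had 21 bp in A159V and 19 bp in WT. Segments of 21 to 30 bp numbered 61 and 49, a ratio of 1.24 (0.841 to 1.85), those of 31 to 40 bp 105 and 127, and those of 41 to 49 bp made up 47.3% and 46.9% of calls. Segments of 20 bp or less were found in 4 WT calls and 0 A159V calls, and 0 of 315 allows a share of up to 0.952%.

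**Figure D3:**
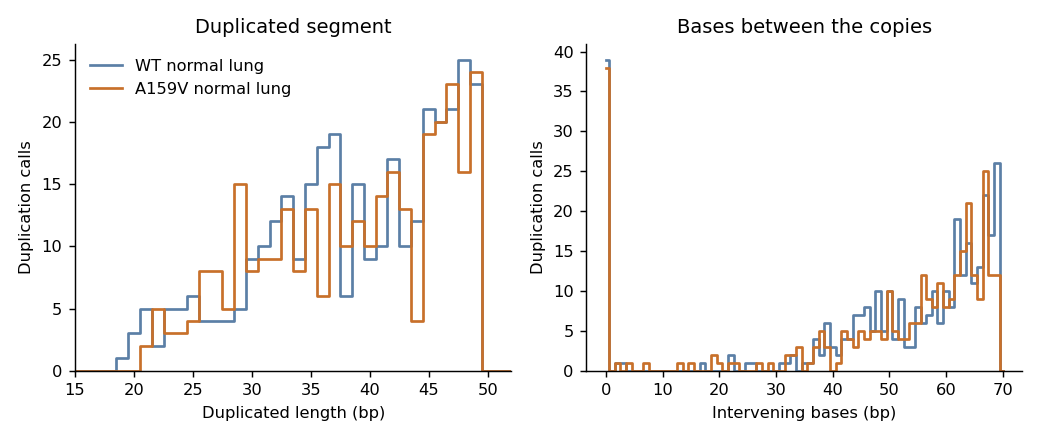
Number of calls (vertical axis) by length of the duplicated segment in bp (left) and by number of inserted bases between the copies in bp (right), for the WT and the A159V normal lung. The lines of both libraries end at 49 bp and 69 bp, and the right plot has a separate peak at 0 for the 39 WT and 38 A159V exact copies.

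Exact copies were about as frequent in both lungs, 38 in A159V (12.1%) and 39 in WT (11.5%), a difference of 0.559 percentage points (-4.40 to 5.59). Their median length was 34.5 bp (32 to 39) and 37 bp (33 to 40). Simple repeats made up 18 and 20 of them. Among the rest, 5 and 9 had an internal direct repeat of at least 8 bp, and 15 and 10 had neither. Exact copies also read in the tumor were rare, 3 of 37 tumor-shared calls in A159V and 1 of 49 in WT.

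Inserted bases between the copies were present in 277 A159V and 300 WT calls, with medians of 59 bp (57 to 61) and 60 bp (58 to 62). Short insertions of 1 to 19 bp were found in 7 A159V and 3 WT calls, a ratio of 2.33 (0.533 to 14). Insertions of 60 to 69 bp were found in 135 and 154. An N, a base the caller did not resolve, stood among these bases in 43.2% of A159V and 46.9% of WT calls. The difference in share was -3.73 percentage points (-11.3 to 3.89).

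Part of the inserted bases often repeated the segment again. Among calls outside simple repeats with at least 20 inserted bases, a word of 12 bases of the segment recurred in 83 of 208 A159V calls (39.9%) and 81 of 221 WT calls (36.7%), a difference of 3.25 percentage points (-5.90 to 12.4). The reverse complement of such a word was found in 5 and 6 calls. All inserted bases lay within a run of copies of the segment in 6 A159V calls (2.88%) and 7 WT calls (3.17%), and in 2 of each they began with a whole further copy, as at C2cd2l.

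Simple repeats made up about the same share of calls, 84 in A159V (26.7%) and 97 in WT (28.6%), a difference of -1.95 percentage points (-8.75 to 4.92). Here a simple repeat means a run of 1 base over 8 bp or more, or a unit of 2 to 6 bases repeated at least 3 times with a tract length of 12 bp or more. Homopolymers were found in 51 and 49 calls, dinucleotide units in 13 and 17, and units of 3 to 6 bases in 20 A159V and 31 WT calls. Such repeats were concentrated at shallow sites in both lungs, with 33.1% of A159V and 36.3% of WT calls under 20 reads and 4.29% and 4.82% at 20 or more.

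The repeat calls of the A159V lung were poorer in GC, and over all calls the medians were close. At simple repeats the median GC content of the segment was 22.6% in A159V (17.5 to 31.9) and 38.5% in WT (28.3 to 43.5). Segments under 20% GC made up 36 of 84 A159V (42.9%) and 26 of 97 WT repeat calls (26.8%), a difference of 16.1 percentage points (2.18 to 29.3). Runs of A were found in 26 and 17 calls, runs of T in 20 and 23, runs of C in 4 and 6, and runs of G in 3 and 5. This contrast was 1 of several subsets examined and its interval was not widened for their number. Over all calls the median GC content was 43.3% (41.7 to 45.7) and 42.9% (40.5 to 45.2), and the median share of purines, A and G, was 51.1% and 48.8%.

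Direct repeats inside the segment made up a larger share of A159V calls in 1 subset, those with inserted bases, and not detectably over all calls. An internal word of at least 8 bp occurring more than once, outside simple repeats, was found in 47 of 277 such A159V calls (17%) and 33 of 300 WT calls (11%), a difference of 5.97 percentage points (0.306 to 11.7). Erc2 and Dnah12 are A159V examples, with words of 16 and 8 bases, and Nlrp14 is a WT example with a word of 20 bases. With exact copies included, 52 A159V calls (16.5%) and 42 WT calls (12.4%) had one, a difference of 4.12 percentage points (-1.28 to 9.58), and among exact copies the order was reversed, with 5 of 38 and 9 of 39. The interval of the subset was not widened for the number of subsets examined.

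**Figure D4:**
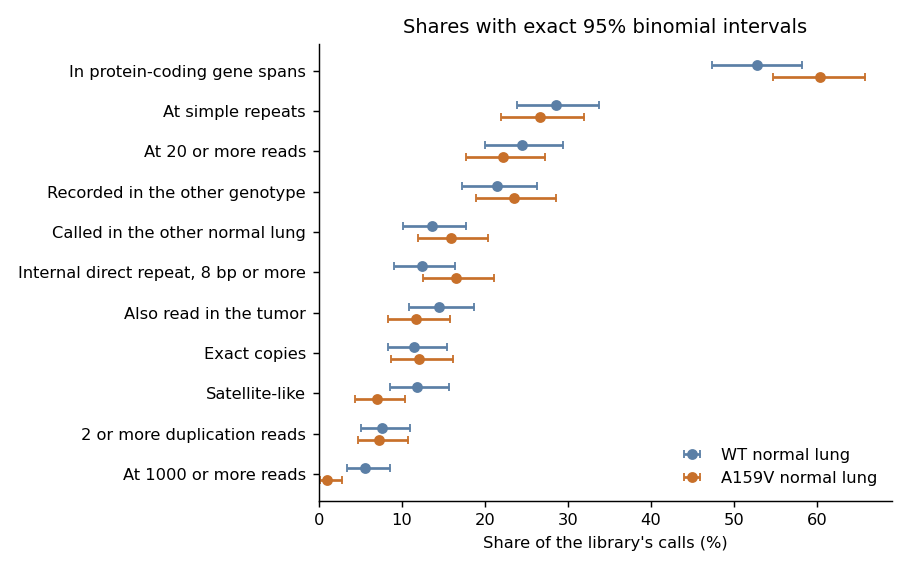
Share of each library's calls (horizontal axis, %) with each feature, for the WT and the A159V normal lung, with exact 95% binomial intervals. Internal direct repeats exclude simple repeats. The intervals overlap for all features shown except sites of 1000 or more reads (5.60% in WT and 0.952% in A159V).

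Most calls of each lung lay in a protein-coding gene span, 190 in A159V (60.3%) and 179 in WT (52.8%), a difference of 7.52 percentage points (-0.0874 to 15). Spans include introns, and exons were not told apart. At sites with 20 or more reads the shares were 50 of 70 (71.4%) and 45 of 83 (54.2%), a difference of 17.2 percentage points (1.79 to 31.3), and 10 of the 70 and 26 of the 83 were satellite-like calls outside such spans. Outside satellite-like and dense stretches the shares at that depth were 44 of 54 (81.5%) and 37 of 49 (75.5%), a difference of 5.97 percentage points (-9.82 to 21.8). At sites with 1 read they were 43.5% and 43.4%. Of 21883 protein-coding genes, 178 had a call in A159V and 166 in WT. Both lungs had a call in 28 genes, 15.7% of the A159V genes and 16.9% of the WT genes. A call in overlapping spans counts for each gene, and a gene called in both lungs can hold different sites, as Nrxn3 does. The total insertion was a multiple of 3 bp in 94 of 190 A159V gene calls (49.5%) and 79 of 179 WT gene calls (44.1%). The difference was 5.34 percentage points (-4.81 to 15.3). Outside protein-coding spans the order was reversed, with 50 of 125 A159V and 70 of 160 WT calls. The difference there was -3.75 percentage points (-15 to 7.75). Neither difference was detectable with these counts, and shares inside and outside spans were not tested against each other.

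Neither lung had a call in any of 31 genes of Okazaki fragment maturation, the polymerase, nuclease, helicase, clamp and ligase genes that act with FEN1. These genes make up 0.129% of the length of all protein-coding spans, so with 190 and 179 span calls a count of 0 shows no departure from that share. Fen1 itself, at chr19:10199132-10204393, had no record. Among 59 DNA repair genes, 0.315% of span length, A159V had 3 calls (1.58% of its span calls, 0.327 to 4.54) and WT 1 (0.559%, 0.0141 to 3.07). The A159V calls were in Fanci, a Fanconi anemia gene, with 1 of 36 reads, and in Msh4, a meiotic MutS homolog, and Nhej1, an end-joining factor, each with the only read at its site. The WT call was in Fanca, also of the Fanconi pathway, again the only read. The Fanca segment was also read in both tumors, in 1 of 1 reads each. Among 35 replication genes, 0.0927% of span length, WT had the Gins1 call shown above and A159V none. Gins1 encodes a subunit of the replicative helicase complex.

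Among 43 lung cancer genes, 0.966% of span length, A159V had 2 calls (1.05% of its span calls, 0.128 to 3.75) and WT 4 (2.23%, 0.612 to 5.62). Both A159V calls were overlapping segments in Fgfr2, a fibroblast growth factor receptor, with 1 read each, and the same segments were read in the WT tumor, in 5 of 5 and 2 of 2 reads. The WT calls were 2 in the ephrin receptor gene Epha5, with 1 of 41 and 1 of 2 reads, 1 in the receptor kinase gene Erbb3 with 1 of 33 reads, and 1 in the phosphatase gene Ptprd with the only read. The 24 genes that mark lung cell types, 0.0792% of span length, had no call. The 24 very long genes of fragile sites make up 3.17% of span length and had 1 call, in Ctnna3 in A159V (0.526% of its span calls, 0.0133 to 2.90), and 0 of 179 in WT (0 to 2.04%). Exome capture does not sample spans evenly by length, so these shares are a description. Each of the list calls was a single read, too few to compare the lungs list by list.

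Of the calls with 3 or more reads, 11 in A159V and 10 in WT, 1 in each lung had no record in the other genotype. Chl1, a neural cell adhesion gene whose recorded stretch is satellite-like, had 19 of 302 reads in A159V (6.29%, 3.83 to 9.65) and 37 of 415 in WT (8.92%, 6.36 to 12.1). The duplication in Irak4, whose kinase product acts downstream of Toll-like receptors, had 11 of 20 reads in A159V (55.0%, 31.5 to 76.9) and 4 of 15 in WT (26.7%, 7.79 to 55.1). At both genes the duplication was also read in both tumors, with 8 of 19 reads in the A159V tumor and 14 of 20 in the WT tumor for Irak4. The intervals of the lungs overlapped at each gene.

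Rpap3, which encodes a cofactor of RNA polymerase assembly, had 7 A159V and 2 WT calls, all starting within 21 bases of each other. When records within 10 bp were merged, the 7 A159V calls became 1 locus and the 2 WT calls stayed apart. The higher A159V count is thus of overlapping records and not of separate sites. Its exact copy of 33 bp had 6 of 19 reads in A159V (31.6%) and 4 of 21 in WT, and was read in both tumors. Another exact copy of 33 bp at Rpap3, at chr15:97686378-97686410, had 2 of 9 reads in A159V and 0 of 12 in WT, where 0 reads allow up to 25%. A segment of 49 bp that starts 21 bases earlier on the chromosome had 3 of 14 and 3 of 18 reads. Cmya5, a gene of striated muscle, had 8 of 92 reads in A159V (8.70%, 3.83 to 16.4) and 2 of 53 in WT (3.77%, 0.460 to 13). Slc6a13, a GABA transporter gene, and Chsy3, a chondroitin synthase gene, each had 4 of 4 reads in A159V and 2 of 2 in WT. Ndufa3, of mitochondrial complex I, had 3 of 6 and 1 of 3.

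Some of the WT calls with most duplication reads were low or unread in A159V, an order that choosing them by WT reads favours. The zinc finger gene Zscan18 had 3 of 93 reads in WT (3.23%, 0.670 to 9.14) and 1 of 127 in A159V (0.787%, 0.0199 to 4.31), and these intervals overlap. In Zfp984, another zinc finger gene, WT had 3 of 118 reads and A159V 0 of 109, where 0 reads allow up to 2.75%, above the WT fraction of 2.54%. The Zfp984 duplication was read in the A159V tumor, in 2 of 85 reads. Nlrp14, an NLR family gene of the germ line, had 4 of 4 reads in WT and is the WT call of 3 or more reads with no record in A159V.

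Calls in gene spans at 20 or more reads with no record in the other genotype numbered 38 in A159V and 31 in WT. The 5 named per lung were taken by duplication reads and then by depth, which favours low fractions. In A159V the gene with most reads was Cd2bp2, a splicing-related adaptor, with 2 of 106 reads (1.89%). Vmn2r36, Btbd35f12, Prb1 and Ddx21 followed with 1 read of 353, 255, 175 and 126. The WT genes were Vmn2r43, Gm15107, Zfp931, Ssxb2 and Gm21149, with 1 read of 333, 171, 95, 82 and 77. Of these 10 calls none had a duplication read in the tumor. At each of them 0 tumor reads allow a fraction above that of the normal lung, such as up to 2.46% at Cd2bp2. Vmn2r, Ssxb, Btbd35f and zinc finger genes belong to families of near-identical copies, so the position of such reads is uncertain.

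Over the calls at 20 or more reads the median share of reads with the duplication was 1.51% in A159V (1.00 to 2.17, 70 calls) and 1.30% in WT (0.806 to 2.44, 83 calls). Outside satellite-like and dense stretches it was 2.06% (1.41 to 2.78) and 2.63% (2.27 to 3.23). A single read sets the smallest fraction a site can show, so these medians move with depth. Per 10000 reads over all records of that kind, called in the normal lung or not, A159V had 70.3 duplication reads and WT 85.5. The ratio was 0.822 (0.575 to 1.18). Sites with no duplication read in either library of a genotype are not recorded, so this is not a rate over all sequenced sites. Reads shared by overlapping records were counted for each record here too.

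Calls with more reads were more often found in the other lung. Loci called in the other normal lung held 16 of 23 A159V calls with at least 2 reads (69.6%, 47.1 to 86.8) and 34 of 292 with 1 read (11.6%, 8.20 to 15.9). For WT the shares were 14 of 26 (53.8%) and 32 of 313 (10.2%). There were 75 segments with the same start and end recorded in both genotypes and called in at least 1 lung. Of these, 29 were called in both, 22 in WT alone and 24 in A159V alone. The intervals of the read fraction overlapped at all 29, and 25 had the same number of inserted bases in both libraries.

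Variants identical in every base and called in both lungs numbered 7, of which 2, in Rpap3 and Tle1, were exact copies. The others were 2 in Cmya5, 1 each in Opn5 and C2cd2l, and the gene-free position on chromosome 11. Opn5, an opsin gene, had 1 of 12 reads in each lung. C2cd2l had 3 of 3 reads in A159V and 1 of 1 in WT.

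**Figure D5:**
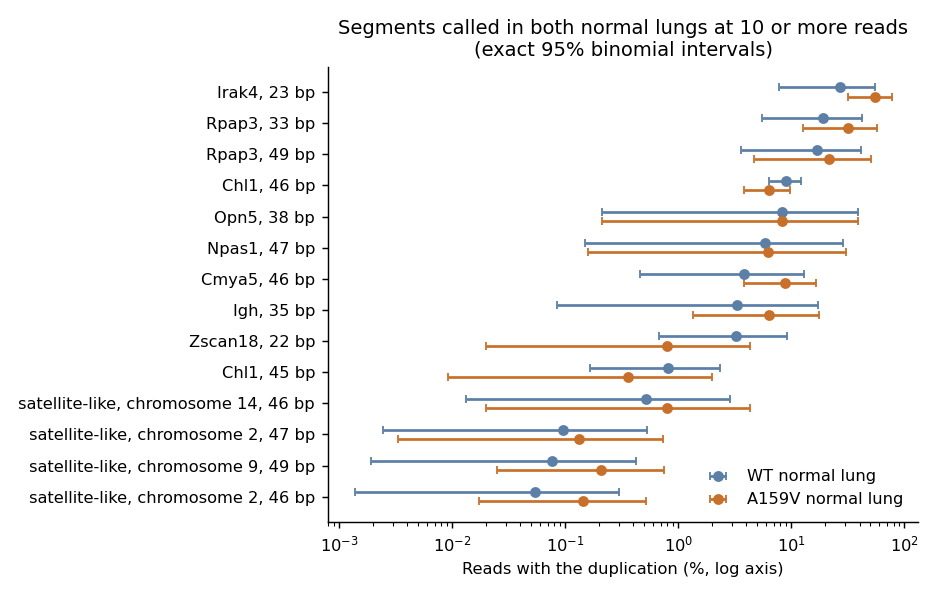
Share of reads with the duplication (horizontal axis, %, log scale) at the 14 segments called in both normal lungs with at least 10 reads in each, named by gene and segment length, with exact 95% binomial intervals. The intervals of the WT and the A159V lung overlap at each segment, from 26.7% and 55.0% at Irak4 down to 0.0541% and 0.143% at the satellite-like position of chromosome 2.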

How the data were processed

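Exome libraries of normal lung from 1 WT and 1 A159V sample were compared, and the 2 tumor libraries were used only where named. The values are read counts as deposited by the authors, in 2 tables with a genotype and the reads for the reference and the duplicated allele per library; the files hold them as combined text fields, and they were split into counts here with no normalization. Per the file headers, the split-read caller Pindel was run against GRCm38, and the submitters' processing notes name BWA with mm10 and GRCm38. Versions, and any filter the authors applied, are not given in the sources here.

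Calls needed at least 1 duplication read. The duplicated segment and the inserted bases were read from the deposited alleles. Genes were assigned by overlap with protein-coding spans in the RefSeq GRCm38.p6 table (21883 protein-coding genes), which gives no exons. Depth is the sum of both read counts, 1 to 5443 per call in A159V and 1 to 1946 in WT. Dense stretches were 100-kb windows in which both tables together had 8 or more records. No consensus of major satellite was used, and satellite-like words came from the files in place of the planned consensus. Records within 10 bp were 1 locus.

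Counts carry exact Poisson intervals, ratios exact conditional binomial intervals, shares Clopper-Pearson intervals, differences of shares Newcombe intervals and medians order-statistic intervals, all at 95%. Where a lung had 0 duplication reads, the limit is 3 reads of its depth, and 0 of 315 calls was treated alike. The named genes were, per lung and in protein-coding spans, the 8 calls with most reads, the 5 with most reads at 20 or more reads and no record in the other genotype, the 5 exact copies with most reads, calls in the listed genes, variants identical in both lungs, and Fen1. 1 exact copy that this rule names, the A159V call of 3 or more reads with no record in WT, is not reported here. Genes of chromosome 14 were named after their values were seen. Members, lists and subsets were chosen with earlier results of these data known. Intervals and repeat searches were tested on simulated data. Python 3.11.15, numpy 2.4.6, pandas 2.3.3, scipy 1.17.1 and matplotlib 3.10.9 were used.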

Additional observations from a re-analysis of the deposited data

Results flagged for a closer look

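Chromosome 14 had more A159V than WT calls in the normal lungs and fewer in the tumors, with 1 library in each group. The ratio of A159V to WT calls was 2.07 (1.08 to 4.12, 31 and 15 calls) in normal lung and 0.325 (0.159 to 0.620, 13 and 40 calls) in lung tumor. Outside satellite-like and dense stretches the ratios were 2.15 (28 and 13 calls) and 0.353 (0.166 to 0.699, 12 and 34 calls). The difference between the tissues was not tested, and chromosome 14 was 1 of 21 chromosomes examined. Widened for 21 chromosomes, the normal lung interval of all calls included 1 (0.787 to 6.07), and the tumor interval was not widened. The tumor ratio stands beside 334 A159V and 502 WT tumor calls in all.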

How the results depend on the processing

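Of 52 alternative settings over 15 results, 51 left the value within its interval or count range and none turned a called direction. The exception was the number of calls divided by the reads at recorded sites, for which the ratio of A159V to WT moved from 0.929 to 1.27 (1.09 to 1.48), with 70412 and 96219 reads, most of them at satellite-like positions. These reads are summed over sites recorded for a duplication in that genotype and do not measure library depth. The lower share of satellite-like calls in A159V had an interval that included 0 when records were merged into loci (-4.15 percentage points, -8.49 to 0.195) and without loci recorded in both genotypes (-2.58, -6.82 to 1.67). Settings added after seeing the data were the calls without sites of 1000 or more reads (ratio 0.975), the limit of 750 reads in A159V for the deepest class (0.263), the satellite share with the Chl1 stretch not counted (-4.66), and chromosome counts over merged loci, where 3 chromosomes in place of 2 had an interval without 1. A stricter definition of simple repeats gave a difference of 3.41 percentage points (-2.88 to 9.72), against -1.95 in the main setting. Most main intervals included no difference, so few of the 15 results had a called direction to turn. Signs also changed for exact copies (0.559 to -1.88) and for calls at 20 or more reads (-2.26 to 2.62). Chromosomes with an interval without 1 were 2 and 14, and 6 and 14 outside satellite-like and dense stretches. No paired analysis was possible because each group is 1 library and the labels carry no replicate numbers. No replicate could be left out for the same reason. Single reads at sites of 1 to 9 reads make up most calls, so fractions there are not measured.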
